A study of Mus musculus with 48 samples.

Results

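The mouse genes whose symbol is Zfp followed only by digits were described by the open chromatin over their gene bodies. A peak, that is a stretch of open DNA called by the authors, was counted as a member when it overlapped such a protein-coding gene. Where it overlapped several genes, it went to the gene with a boundary nearest the middle of the peak, and Zfp683 was left out by the rule. This gave 525 peaks of 53868 in all, and of 34587 that overlapped any protein-coding gene. They lay in 319 of the 367 numbered Zfp genes, and the other 48 genes had no peak. Most genes held 1 peak (222 genes) or 2 peaks (52 genes), Zfp608 and Zfp827 held 9, Zfp407 held 11 and Zfp469 held 13.

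The chromatin came from CD8 T cells that had been placed in mice with B16-OVA tumours, a melanoma that carries ovalbumin. The cells of every group were CD45.1, expressed Cas9, carried the OT-1 receptor for ovalbumin, and had received a lentiviral guide RNA with an ametrine reporter as naive-like spleen cells before transfer. How many cells had lost the targeted gene was not analysed here. The guides were the OTC control, Zfp219KO or Dusp5KO, and the recipients were young or aged. At day 15 of tumour growth 4 states were sorted: progenitor exhausted (Tprog, Slamf6+Tim-3-), transitory effector-like (Ttran, Slamf6+Tim-3+), terminally exhausted (Tterm, Slamf6-Tim-3+) and age-associated dysfunctional cells (Ttad, Slamf6-Tim-3-). Tprog, Ttran and Tterm were taken from both ages with all 3 guides, and Ttad only from aged hosts with all 3 guides. This made 21 groups, 15 with 2 libraries and 6 with 3, 48 libraries in total. Each library was a pool of cells from several mice (5000 to 50000 cells), so a p-value measures the spread between pools. The ages in weeks and the guide sequences are not given in the sources used here. In the column names of the deposited table, aged and young libraries form separate series that reuse the same library numbers. Host age and series cannot be told apart.

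Values are ATAC-seq reads over a peak after the authors' scaling by library size, called normalised reads below. The libraries held between 5638413 and 29942755 reads in peaks (median 14691505). Peaks over CD8 T cell genes were strong in every group (means of 664 to 1455 normalised reads for Cd8a, Cd8b1, Cd3e, Cd3d, Cd3g, Lck and Cd2). No peak lay over the melanoma genes Tyr, Tyrp1, Dct and Sox10, the myeloid genes Csf1r, Lyz2 and Adgre1, the B cell genes Ms4a1 and Cd79a or the NK cell gene Ncr1. Of the other markers on these lists, Pmel averaged 1477 normalised reads, Cd14 249, Spi1 224, Pax5 211, Mlana 168, Itgam 98.5 and Klrb1c 8.72. In pooled cells, fewer open cells and less opening in each cell cannot be told apart. Replicates of a group differed by more than counting noise (chi-square per degree of freedom 2.81 to 4.57 over 33 pairs). A difference was called where limma, fitted to log2(normalised reads + 1) of all 53868 peaks and all 48 libraries, gave an adjusted p under 0.05 after Benjamini-Hochberg adjustment over all peaks. Every adjusted p below is from that fit, and every ± after a log2 difference is its standard error.

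Most numbered Zfp genes encode proteins with arrays of classical zinc fingers, each finger reading a few bases of DNA. The largest branch also carries a KRAB domain, which recruits Trim28 (KAP1) and through it the methyltransferase Setdb1 and heterochromatin proteins, and is known for silencing transposable elements. KRAB genes arose by repeated duplication and lie in dense clusters of similar copies, above all on chromosomes 7, 13, 17 and 4 of the mouse, and such clusters can themselves be covered by heterochromatin. Other members are not of this kind: Zfp36 binds AU-rich messenger RNA with CCCH fingers and promotes its decay, Zfp598 is a ubiquitin ligase for collided ribosomes, and Zfp207 works at kinetochores.

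The members sat where the gene family sits. Chromosome 7 held 110 of the peaks in 79 of its 90 genes, chromosome 17 held 53 in 36 of 41 genes, chromosome 13 held 33 in 29 of 32 genes, and chromosome 4 held 40 in 17 of 27 genes. Of the 525 peaks, 292 lay over a start site or gene boundary (243 contained a listed start site) and 233 lay inside the gene. In counts below the 292 are called starts for short, and peaks over either end of a gene are among them. Starts of any gene are counted in the same way. Only 26 overlapped more than 1 protein-coding gene. At least 1 read was counted in every library for 498 members, and 18 members averaged under 10 normalised reads.

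The start regions of 7 members are printed first because the results turn on them. Zfp652 and Zfp239 are starts that changed with state or perturbation, Zfp687 is the strongest member, Zfp317 fell in Dusp5KO cells, and Zfp940, Zfp383 and Zfp457 carry a motif that was found more often in start windows of this family. Each run is the RefSeq window on GRCm38.p6 from 250 bases before to 50 bases after the listed start, written 5′ to 3′ on the gene's strand, with matches to the searched motifs in capitals.
Zfp652, chr11:95748817-95749116, plus strand: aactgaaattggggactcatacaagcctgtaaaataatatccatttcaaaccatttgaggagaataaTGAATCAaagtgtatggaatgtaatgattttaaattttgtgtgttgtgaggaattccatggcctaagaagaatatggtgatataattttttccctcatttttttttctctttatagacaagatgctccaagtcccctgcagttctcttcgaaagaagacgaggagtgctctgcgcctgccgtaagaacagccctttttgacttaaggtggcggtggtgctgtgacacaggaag
Zfp239, chr6:117862631-117862930, plus strand: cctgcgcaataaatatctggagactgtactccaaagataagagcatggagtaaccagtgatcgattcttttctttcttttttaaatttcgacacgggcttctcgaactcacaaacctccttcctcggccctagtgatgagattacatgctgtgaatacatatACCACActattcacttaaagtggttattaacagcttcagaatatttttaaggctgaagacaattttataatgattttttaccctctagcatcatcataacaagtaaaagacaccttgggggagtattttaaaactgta
Zfp687, chr3:95015189-95015488, minus strand: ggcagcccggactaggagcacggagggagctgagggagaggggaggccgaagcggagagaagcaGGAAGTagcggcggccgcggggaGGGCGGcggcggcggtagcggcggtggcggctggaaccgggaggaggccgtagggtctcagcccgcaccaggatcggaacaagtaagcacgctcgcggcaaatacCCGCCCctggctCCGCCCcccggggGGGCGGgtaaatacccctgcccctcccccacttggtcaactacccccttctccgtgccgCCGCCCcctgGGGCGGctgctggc
Zfp317, chr9:19621841-19622140, plus strand: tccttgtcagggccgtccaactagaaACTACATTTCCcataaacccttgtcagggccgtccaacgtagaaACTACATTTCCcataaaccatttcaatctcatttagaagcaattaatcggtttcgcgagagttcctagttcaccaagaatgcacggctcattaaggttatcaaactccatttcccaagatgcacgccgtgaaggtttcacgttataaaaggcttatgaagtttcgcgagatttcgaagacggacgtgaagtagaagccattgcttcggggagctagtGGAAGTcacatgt
Zfp940, chr7:29853599-29853898, minus strand: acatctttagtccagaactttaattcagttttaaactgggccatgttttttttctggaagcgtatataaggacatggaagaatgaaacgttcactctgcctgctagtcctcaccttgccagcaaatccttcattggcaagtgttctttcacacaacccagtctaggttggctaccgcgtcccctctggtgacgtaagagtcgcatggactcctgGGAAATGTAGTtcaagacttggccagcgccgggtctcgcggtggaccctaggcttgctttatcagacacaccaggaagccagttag
Zfp383, chr7:29908267-29908566, plus strand: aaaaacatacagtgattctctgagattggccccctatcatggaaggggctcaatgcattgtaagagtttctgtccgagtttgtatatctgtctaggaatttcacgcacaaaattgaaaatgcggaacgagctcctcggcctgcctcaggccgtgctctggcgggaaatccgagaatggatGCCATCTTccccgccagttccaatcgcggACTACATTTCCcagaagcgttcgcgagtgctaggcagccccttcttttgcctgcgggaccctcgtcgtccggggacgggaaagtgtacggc
Zfp457, chr13:67306363-67306662, minus strand: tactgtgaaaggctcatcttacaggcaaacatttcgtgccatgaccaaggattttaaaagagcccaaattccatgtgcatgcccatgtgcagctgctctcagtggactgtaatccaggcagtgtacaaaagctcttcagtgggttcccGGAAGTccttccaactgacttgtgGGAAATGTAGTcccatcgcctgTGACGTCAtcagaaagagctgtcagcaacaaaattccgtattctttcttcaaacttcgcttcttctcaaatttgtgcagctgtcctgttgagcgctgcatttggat

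The windows differ in base composition. The printed Zfp687 window held 30 CG pairs at 73.0% G and C, whereas the Zfp652 and Zfp239 windows held 5 and 6 CG pairs at 39.3% and 36.7%. The window of another listed start in the same Zfp687 peak, not printed, held 15 CG pairs at 62.0%. Motifs were searched on both strands, overlaps with other motifs allowed: TGANTCA (AP-1), GGAAGT (ETS), ACCACA (Runx), AAGATGGC (YY1), GCGC and TGCGC with any base between them (NRF1), TGACGTCA (the cyclic AMP response element), GGGCGG (Sp and Klf factors) and TCTCG joined to CGAGA (the ZBTB33 palindrome). The last was ACTACA and TCC with any 2 bases between them, the core of the element bound by human ZNF143, whose mouse counterpart Zfp143 is itself a member. It is called the ZNF143 core below. Windows with their start inside a peak were compared for 247 numbered Zfp genes and for 11373 genes in all. The ZNF143 core was present in 45 of the 247 Zfp genes (18.2%) against 528 of 11373 (4.64%). GGAAGT was present in 42.1% against 30.4%, ACCACA in 17.8% against 14.1%, AAGATGGC in 6.48% against 4.89%, and TGACGTCA in 4.45% against 3.61%. GGGCGG was present in 48.2% against 68.0%, the NRF1 motif in 9.31% against 11.2%, TGANTCA in 3.24% against 5.55%, and the ZBTB33 palindrome in 0.405% against 1.13%. The median window held 15 CG pairs in Zfp genes and 22 in all genes, with 55.3% and 61.7% G and C. Of the 45 member peaks with the ZNF143 core, 35 were in clusters of at least 5 numbered Zfp genes, 19 on chromosome 7 and 17 on chromosome 13. A match is a run of letters, not a measured binding site, and related copies in a cluster share sequence.

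In level, start or boundary peaks and internal peaks differed at the median but overlapped widely (13.3 to 2200 and 2.73 to 1720 normalised reads). Over the 48 libraries the median start or boundary peak averaged 357 normalised reads and was 1240 bp wide, and the median internal peak averaged 50.1 and was 719 bp wide. The corresponding medians for peaks of any gene were 433 (11550 peaks) and 64.5 (23037 peaks). Strong peaks varied least: the log2 range between the highest and lowest of the 21 group means had a median of 0.597 at member starts and 1.78 at internal members, against 0.597 and 1.54 for any gene. The strongest member was the start of Zfp687 (chr3:95014773-95016662), a zinc-finger protein found in a complex with Zmynd8 and Zfp592, at 2200 normalised reads. Zfp869, Zfp367, Zfp446 and Zfp78 followed, all at their starts. The 5 widest ranges were internal peaks of Zfp236, Zfp521, Zfp148, Zfp993 and Zfp982, and the widest reached 5.33 log2 units.

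**Figure D1:**
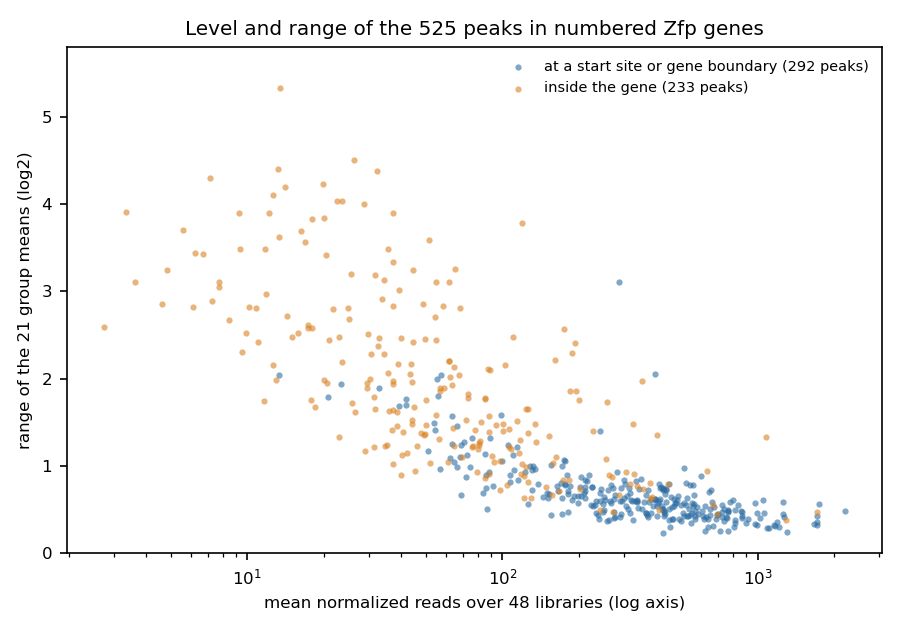
Mean level (normalised reads over 48 libraries, log axis) against the log2 range of the 21 group means for each of the 525 member peaks. The 292 start or boundary peaks (blue) mostly lie high and narrow, with a median range of 0.597. The 233 internal peaks (orange) mostly lie low and wide, with a median range of 1.78.

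The perturbed gene comes first, as a check. Zfp219 held 1 peak (chr14:52008652-52009248), inside the gene. In aged OTC cells it had 168 and 195 normalised reads in Tprog, 126 and 121 in Ttran, 156 and 192 in Tterm, and 121 and 137 in Ttad. In aged Zfp219KO cells it had 148 and 184 in Tprog, 185 and 154 in Ttran, 159 and 166 in Tterm, and 170 and 188 in Ttad. The libraries overlapped in Tprog and Tterm, and the Zfp219KO libraries were the higher in Ttran and Ttad. In young cells the OTC libraries ran from 95.4 to 161 (median 135) and the Zfp219KO libraries from 110 to 172 (median 137). The aged Dusp5KO libraries ran from 119 to 223 (median 156) and the young ones from 103 to 154 (median 132). Zfp219 was called in none of the 14 comparisons by limma, with an unadjusted p under 0.05 in 4, and by edgeR in none either. The aged Zfp219KO difference was 0.17 (adjusted p = 0.274), and within Ttad it was 0.48 (adjusted p = 0.199). Open DNA inside a gene does not show whether a guide cut the gene, so this peak checks no label.

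The first question was whether numbered Zfp chromatin differs between progenitor and terminal cells. In control cells of aged hosts 65 members were called between Tprog and Tterm, 31 higher and 34 lower in Tprog. That is 12.4% of members against 20.1% of all peaks (8.88% higher and 11.2% lower). In young hosts 112 members were called, 59 higher and 53 lower, or 21.3% against 26.5% of all peaks (13.9% higher and 12.6% lower). Both shares were below those of all peaks, and the shortfall lay at the starts: 6.51% of member starts were called in aged hosts against 11.6% of starts of any gene, and 16.4% against 24.6% in young hosts. Inside genes the shares were 19.7% against 22.1% and 27.5% against 26.6%. The counts rest on few libraries: without replicate 1 or 2 of every group, 21 and 34 members were called in aged hosts, and 59 and 60 in young hosts. Under quantile normalisation the 19 called aged starts, 5 higher and 14 lower, became 11 higher and 5 lower, so no direction is given for them.

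**Figure D2:**
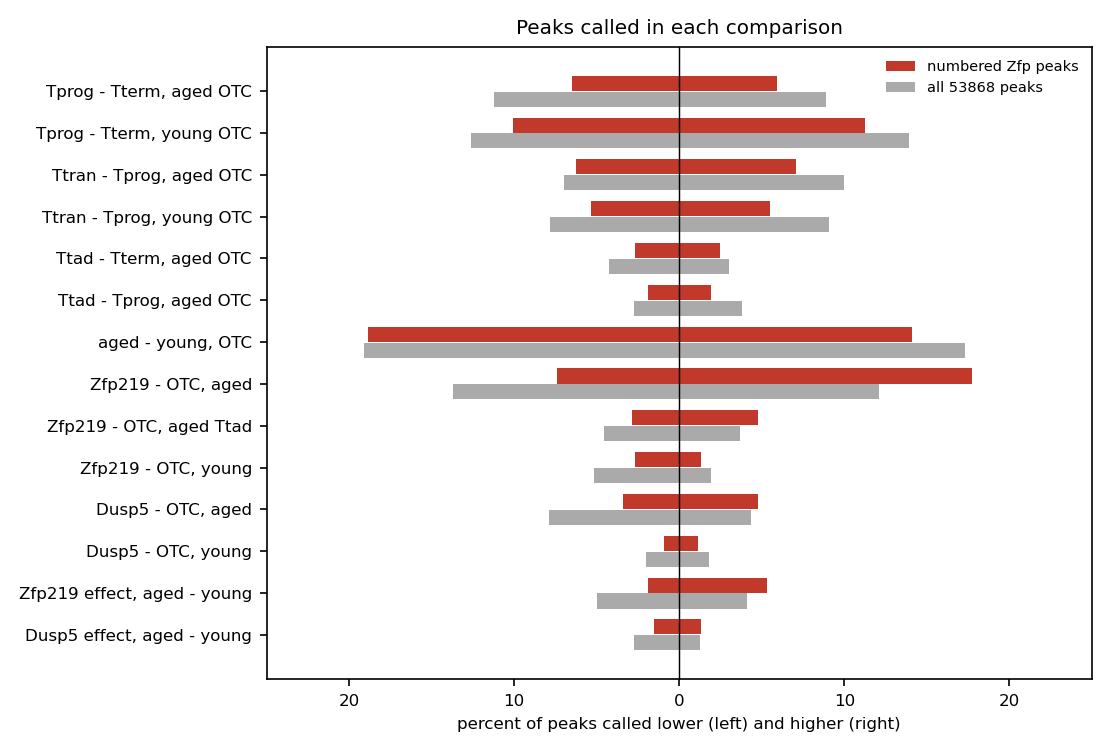
Percent of the 525 members and of all 53868 peaks that were called higher and lower in each of 14 comparisons. In total a smaller percentage of members than of all peaks was called in each comparison, and the members' higher calls exceed their lower calls most in Zfp219KO cells of aged hosts (93 against 39).

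The largest state difference at a start was that of Zfp652, a repressor that works with the corepressor Cbfa2t3. Its only peak (chr11:95747975-95749126) covers the start printed above. In aged OTC cells it had 63.4 and 68.3 normalised reads in Tprog, 268 and 212 in Ttran, 292 and 275 in Tterm, and 75.5 and 80.1 in Ttad. In young OTC cells it had 140 and 144 in Tprog, 468, 460 and 411 in Ttran, and 501, 565 and 521 in Tterm. At both ages Tprog was low and Ttran and Tterm high, with no overlap between Tprog and either, and in aged hosts Ttad lay near Tprog. Tprog was lower by 2.09 ± 0.17 log2 in aged hosts (adjusted p = 1.44e-17) and by 1.89 in young hosts (adjusted p = 1.21e-17). Against Tterm, Ttad was lower by 1.85 (adjusted p = 6.22e-14), whereas Ttad and Tprog differed by 0.24 (adjusted p = 0.5). The Zfp652 state differences kept their call in every alternative tried, including each replicate left out.

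**Figure D3:**
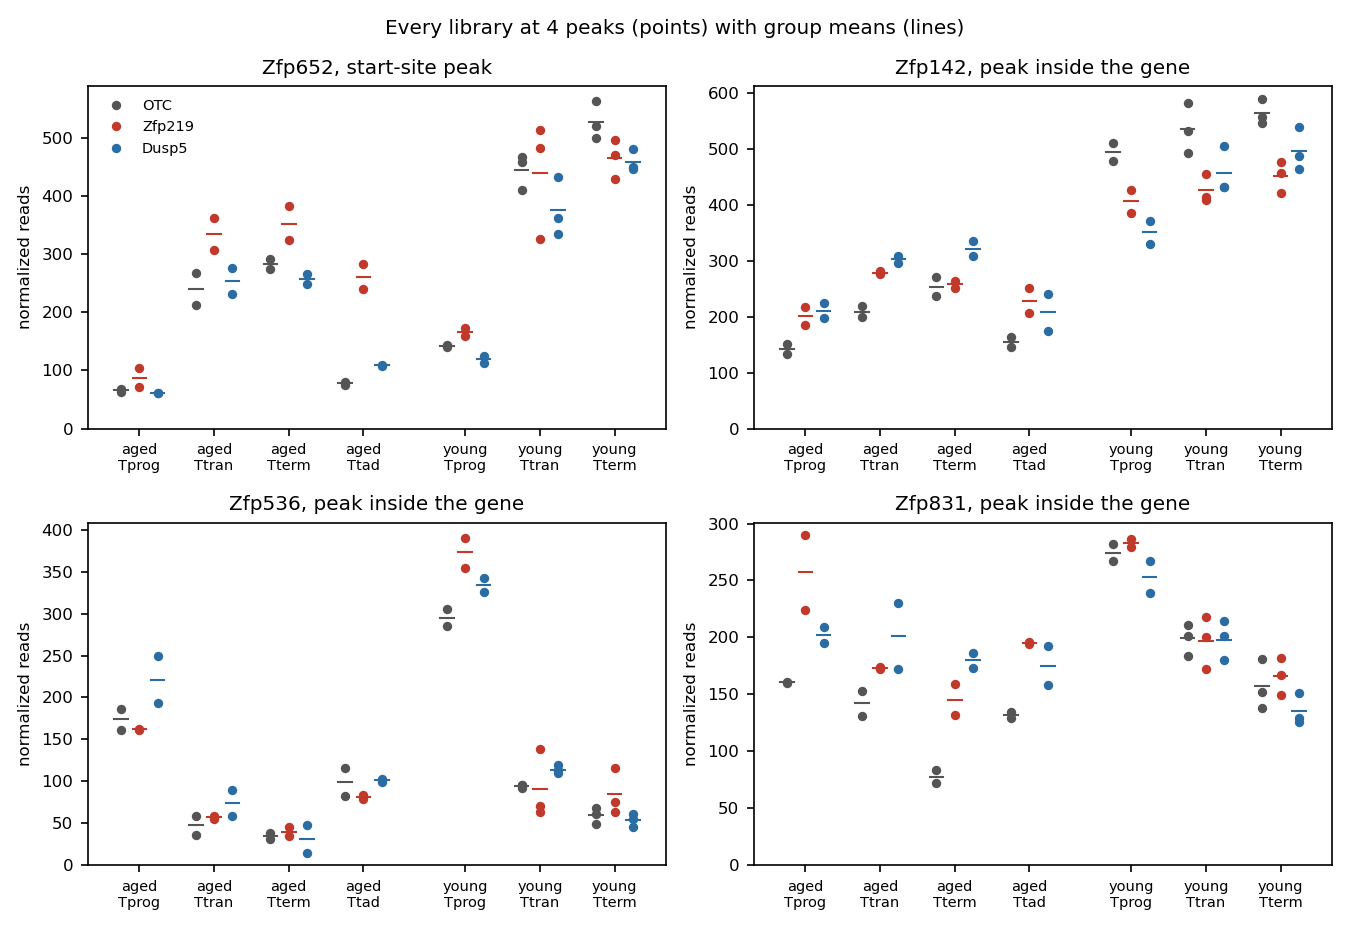
Normalised reads in each library (points, with lines at group means) for the start of Zfp652 and for peaks of Zfp142, Zfp536 and Zfp831, by state, host age and guide. Zfp652 is lowest in Tprog and Ttad control cells, and its Ttad libraries are higher with Zfp219KO (283 and 240) than with OTC (75.5 and 80.1).

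Zfp536, a repressor known from neural differentiation, went the opposite way at an internal peak (chr7:37490117-37491153). It had 186 and 161 normalised reads in aged OTC Tprog, 36.1 and 59 in Ttran, 31.6 and 38.5 in Tterm, and 116 and 82.5 in Ttad. In young OTC cells it had 305 and 285 in Tprog, 95.8, 92.2 and 95 in Ttran, and 60.7, 67.6 and 49.5 in Tterm. Tprog libraries were highest at both ages and Ttad lay between. Tprog exceeded Tterm by 2.28 ± 0.31 log2 in aged hosts (adjusted p = 7.28e-09) and by 2.31 in young hosts (adjusted p = 1.61e-10), with each replicate left out as well.

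Zfp831 (chr2:174612466-174614853) was also higher in Tprog than in Tterm, by 1.04 log2 in aged and 0.81 in young hosts. Its aged OTC libraries had 160 and 161 normalised reads in Tprog and 71.9 and 83.4 in Tterm, without overlap. Zfp957 (chr14:79234580-79234826) had 64.5 and 71.9 in aged OTC Tprog and 13.1 and 18.3 in Tterm, a rise of 2.07 ± 0.45 (adjusted p = 0.000224). In aged OTC cells every Tprog library of Zfp831 and Zfp957 stood above every Tterm library, and both calls held with each replicate left out.

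Internal peaks and starts of 1 gene could differ. Zfp148, a factor that binds GC-rich promoters, had an internal peak (chr16:33498878-33499994) at 124 and 74.4 normalised reads in young OTC Tprog against 17.7, 15.7 and 9.56 in Tterm. There Tprog was higher by 2.71 ± 0.54 (adjusted p = 3.54e-05), while the strong Zfp148 start (chr16:33379908-33382582) was lower in Tprog by 0.40 ± 0.10 (adjusted p = 0.00139). In aged OTC cells the Zfp148 start had 416 and 484 in Tprog and 633 and 631 in Tterm, and Tprog was lower by 0.49 ± 0.11 (adjusted p = 0.00044), which lost its call without 1 of the replicates (adjusted p up to 0.131). Called peaks in both directions were also found within Zfp277 at both ages, and within Zfp236, Zfp407, Zfp592, Zfp618 and Zfp668 in young hosts.

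The remaining largest state differences were at weak internal peaks. In young hosts Zfp236 rose in Tprog by 3.17 ± 0.72 (adjusted p = 0.000344) and Zfp521, a long protein that binds early B cell factor, by 2.90 ± 0.71 (adjusted p = 0.000813). The Zfp236 peak had 45.8 and 38.5 normalised reads in young OTC Tprog and 3.16, 7.08 and 2.25 in Tterm. The Zfp521 peak had 33.7 and 35.1 in Tprog and 2.53, 3.93 and 5.06 in Tterm. Both were low everywhere outside Tprog in young OTC cells. Among the falls, Zfp827, known for bringing the NuRD complex to telomeres, had an internal peak (chr8:79046679-79047085) lower by 1.93 ± 0.44 (adjusted p = 0.00029), and Zfp618 and Zfp472 fell by 2.08 and 1.93 (adjusted p = 0.012 and 0.00384). For these 3 falls 1 of 3 replicate omissions ended the call. Zfp618 was also not called with a pseudocount of 8, where it fell by 0.76 (adjusted p = 0.117), or by edgeR (adjusted p = 0.059). In aged hosts an internal Zfp143 peak was lower by 2.00 ± 0.43 (adjusted p = 0.000162), Zfp472 by 1.81 and Zfp459 by 1.74, and internal Zfp148 and Zfp292 peaks were higher by 2.2 and 1.98. Without 1 replicate the Zfp143 call was lost once in 2 (adjusted p up to 0.135). The other 4 lost their call when either replicate was left out.

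Between Tprog and Ttran, 70 members were called in aged hosts (37 higher and 33 lower in Ttran), or 13.3% against 17% of all peaks (9.99% higher and 6.98% lower). In young hosts 57 were called (29 higher and 28 lower), or 10.9% against 16.9% (9.07% higher and 7.82% lower). Without replicate 1 or 2 the counts were 27 and 28 in aged hosts and 31 and 32 in young hosts. Zfp652 was higher in Ttran at both ages, by 1.84 (adjusted p = 1.25e-14) in aged hosts and 1.64 in young hosts. An internal peak of Zfp668 (chr7:127873220-127873575) had 32.8 and 31.1 normalised reads in aged OTC Tprog and 1.5 and 6.38 in Ttran, and fell by 2.94 ± 0.49 (adjusted p = 2.68e-06), also with either replicate left out. In young hosts the internal Zfp827 peak named above rose from 15 and 5.13 to 61.4, 57.8 and 47.5, by 2.50 ± 0.44 (adjusted p = 5.25e-06), again with each replicate left out. The internal Zfp148 peak fell in Ttran by 2.37 in aged and 2.31 in young hosts (adjusted p = 0.00181 and 0.000735), and was not called at either age without replicate 1 (adjusted p = 0.213 and 0.137). An internal Zfp93 peak had 14.7 and 9.76 in aged OTC Tprog and was at 0 in both Ttran libraries, so no fold is given.

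The next comparison was of the age-associated Ttad cells with the other states of aged hosts. Against Tterm 27 members were called (13 higher and 14 lower in Ttad), or 5.14% against 7.28% of all peaks (3.02% higher and 4.26% lower). Against Tprog 20 were called (10 higher and 10 lower), or 3.81% against 6.55% (3.82% higher and 2.73% lower). With 2 libraries a group these counts were unstable: 4 and 12 were called against Tterm, and 5 and 6 against Tprog, without replicate 1 and without replicate 2. The Zfp652 start was called against Tterm without either replicate. So was Zfp51 (chr17:21463294-21464527) against Tprog, where it had 454 and 374 normalised reads in Tprog, 171 and 196 in Ttad and 119 and 148 in Tterm, and in Ttad it was lower by 1.17 ± 0.19 (adjusted p = 5.83e-06). Zfp536 was higher in Ttad than in Tterm by 1.46 (adjusted p = 0.000705), and a Zfp286 peak (chr11:62752175-62753181) by 1.12 (adjusted p = 0.000555), from 75.2 and 106 to 225 and 171. Each of these lost its call without 1 replicate. Weak internal peaks of Zfp800 and Zfp473, the latter a factor in histone RNA processing, were lower by 2.88 and 1.80 in Ttad, and in Zfp800 the Ttad libraries had 6.71 and 0. Without 1 replicate these differences ranged from -4.58 to -1.17 and from -2.85 to -0.755.

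Host age was then compared in control cells, as the mean difference over Tprog, Ttran and Tterm. Called members numbered 173, or 33.0% against 36.5% of all peaks, 74 higher in aged cells (17.3% of all peaks) and 99 lower (19.1% of all peaks). They lay in 122 genes, and 12 of these held called peaks in both directions, among them Zfp142, Zfp277, Zfp469, Zfp472 and Zfp618. At starts 31 members were higher and 45 lower in aged cells, whereas for starts of any gene the counts were 1881 and 1496. Without replicate 1, 2 or 3 the member count was 89, 100 and 159.

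Zfp142 showed the age difference most clearly, at an internal peak (chr1:74570023-74571029). Aged OTC libraries had 134 and 152 normalised reads in Tprog, 220 and 199 in Ttran and 271 and 237 in Tterm. Young OTC libraries had 511 and 478 in Tprog, 532, 493 and 583 in Ttran, and 558, 590 and 546 in Tterm. The lowest young library stood above the highest aged one. The difference was -1.43 ± 0.08 log2 (adjusted p = 1.93e-29) and held in each alternative tried. The start of the same gene, at chr1:74587311-74588569, had group means from 891 to 1113 and was called in the opposite direction, higher in aged cells.

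Other large age differences were found at several kinds of peak. Zfp652 was lower in aged cells by 0.97 (adjusted p = 8.38e-15), Zfp536 by 0.84 and Zfp831 by 0.75, each with every replicate left out in turn. Zfp473 fell by 1.56 ± 0.23 (adjusted p = 2.06e-08): its aged OTC libraries had 15.9 and 17.7 in Tprog and 42.5 and 56.8 in Tterm, and its young ones 78.8 and 57.3, and 140, 122 and 149. Zfp870 and Zfp879 each fell by 1.35 (adjusted p = 1.41e-05 and 9.97e-06). The largest rise was at an internal peak of Zfp827 (chr8:79127322-79127765). It had 56.6 and 69.2 in aged OTC Tprog, 49.6 and 39.9 in Ttran and 93.7 and 77 in Tterm. Young OTC libraries ran from 6.19 to 17.3 over the same states, below every aged one. The rise was 2.33 ± 0.30 (adjusted p = 3.45e-10) and held with each replicate left out.

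Rises with age also gathered in the chromosome 4 cluster (chr4:147124882-147849126), a region of near-identical gene copies. Of its 12 peaks in 6 genes, 6 were higher in aged control cells and none lower (17.3% and 19.1% of all peaks). The median difference was 0.941, and it shrank to 0.477 with a pseudocount of 8. Without replicate 1 or 2 there were 4 higher. A Zfp978 peak (chr4:147335619-147335891) had 26 and 27.5 normalised reads in aged OTC Tprog, 39.1 and 59 in Ttran and 8.72 and 30.2 in Tterm. Young OTC libraries had 7.88 and 9.41 in Tprog, 3.97, 21.1 and 14.8 in Ttran, and 1.9, 7.86 and 1.69 in Tterm, a rise of 1.88 ± 0.35 (adjusted p = 6.27e-06). Zfp984 rose by 1.67 (adjusted p = 0.00119), and Zfp600, on the same chromosome, by 1.79 (adjusted p = 2.72e-05). Reads cannot be placed with certainty among such copies, and these peaks hold few reads.

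Zfp219KO cells of aged hosts were then compared with OTC cells, as the mean over the 4 states. Called members numbered 132, or 25.1%, a share near that of all peaks (25.8%). Of them 93 were higher and 39 lower (12.1% and 13.7% of all peaks). The lean to higher calls lay at the starts, where 66 of 292 were higher and 10 lower. Inside genes 27 were higher and 29 lower. Starts of any gene leaned the same way, with 2390 higher and 784 lower of 11550, and the median difference was 0.0908 log2 at member starts and 0.0645 at starts of any gene. The rises at starts were small, from 0.109 to 0.727 log2 with a median of 0.242. The lean at starts kept its direction under quantile normalisation (69 higher and 8 lower) and edgeR (64 and 10). It fell to 17 higher and 5 lower without replicate 1 and to 35 and 4 without replicate 2, and all members called then numbered 47 and 60.

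The share of a library's reads that fell in starts was also higher in aged Zfp219KO than in aged OTC libraries. Member starts took 0.9384 to 0.9419% of reads in aged OTC Tprog libraries, 0.8936 to 0.9048% in Ttran, 0.9194 to 0.9236% in Tterm and 0.9378 to 0.9409% in Ttad. In aged Zfp219KO libraries they took 0.9892 to 0.9928%, 0.988 to 0.9911%, 0.9779 to 0.9804% and 1.012 to 1.015% in the same order. In aged Dusp5KO libraries they took 0.9924 to 0.9957%, 0.9313 to 0.9493%, 0.9204 to 0.9321% and 0.9528 to 0.9657%. The Dusp5KO range overlapped that of OTC in Tterm and lay above it in the other states. Starts of other genes took 43.74 to 46.02% in aged OTC, 46.33 to 48.54% in aged Zfp219KO and 43.81 to 47.35% in aged Dusp5KO libraries. With Dusp5KO in aged hosts 13 member starts were called higher and 8 lower, and 292 starts of any gene higher and 998 lower. The part of these shifts in the member calls was not tested.

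**Figure D4:**
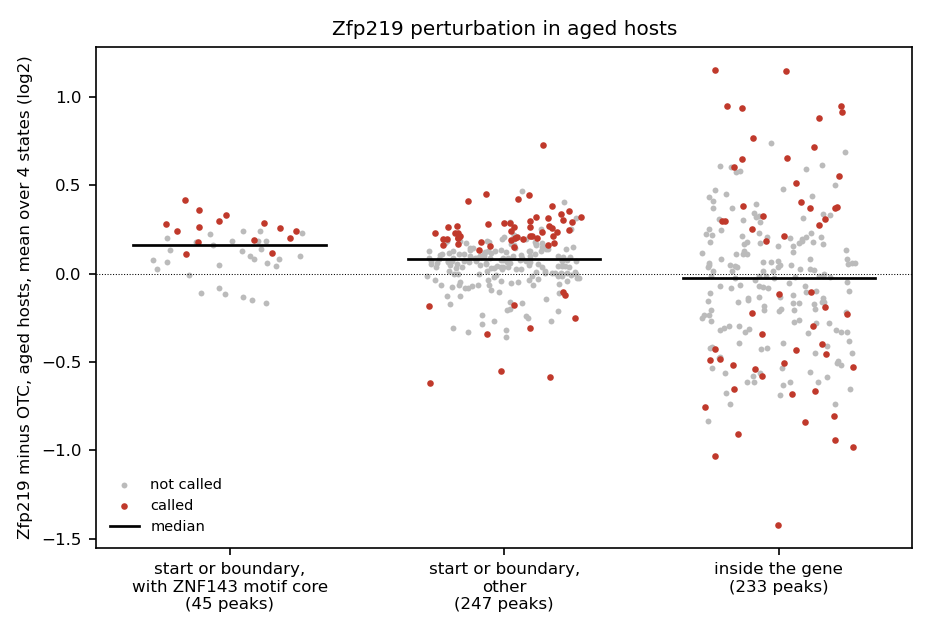
Log2 difference of aged Zfp219KO from aged OTC cells, mean over 4 states, for the 45 start peaks with the ZNF143 core in the RefSeq window, the other 247 start or boundary peaks and the 233 internal peaks (red points were called, lines are medians). Of the 45 peaks with the motif 15 were called higher and none lower, with a median of 0.161.

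Starts with the ZNF143 core, shown in capitals in the Zfp940, Zfp383, Zfp457 and Zfp317 windows, were described separately. Of the 45 member peaks with it, 15 (33.3%) were higher in aged Zfp219KO cells and 0 lower, with a median difference of 0.161. Of the 201 without it, 39 (19.4%) were higher and 9 (4.48%) lower, with a median of 0.0874. Starts of other genes showed 128 higher and 14 lower of 414 with the motif (30.9% and 3.38%), and 1881 higher and 672 lower of 9312 without it (20.2% and 7.22%). The motif shares were thus close in members and in other genes. In the age comparison, which uses the same aged OTC libraries, 1 of the 45 was higher and 6 lower (2.22% and 13.3%), against 10.9% and 17.9% of members without the core and 7.73% and 8.7% of other starts with it.

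Zfp652 had the largest rise among the starts called higher. Its aged Zfp219KO libraries had 71.1 and 104 normalised reads in Tprog, 362 and 308 in Ttran, 324 and 383 in Tterm, and 283 and 240 in Ttad. All stood above the OTC libraries of the same state given above, and the gap was widest in Ttad. The mean difference was 0.73 ± 0.09 (adjusted p = 7.58e-11), and in Ttad alone it was 1.73 (adjusted p = 2.44e-12), both with either replicate left out. Young Zfp219KO cells differed from young OTC cells by 0.00 log2 at this peak. The difference between the ages, over the 3 shared states, was 0.39 (adjusted p = 0.0497). It was not called under quantile normalisation or with a replicate block, and ran from 0.146 to 0.567 with replicates left out.

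Zfp831 rose by 0.60 ± 0.10 (adjusted p = 3.12e-07), with 290 and 224 normalised reads in aged Zfp219KO Tprog against 160 and 161 in OTC, and 159 and 132 against 71.9 and 83.4 in Tterm. An internal Zfp260 peak rose by 0.66 (adjusted p = 0.00044) and Zfp467 by 0.52 (adjusted p = 0.000691), each losing its call without 1 replicate. The 4 largest falls without overlap were at internal peaks. Zfp362 (chr4:128786807-128788144) had 404 and 311 in aged OTC Tprog, 262 and 250 in Ttran, 242 and 250 in Tterm, and 340 and 313 in Ttad. With Zfp219KO it had 260 and 289, 142 and 158, 159 and 140, and 200 and 184, lower in every state, by 0.66 ± 0.10 (adjusted p = 1.15e-07). Zfp202 (chr9:40206295-40207036) ran from 53.4 to 104 in aged OTC libraries and from 33.1 to 55.8 in aged Zfp219KO libraries, and fell by 0.94 ± 0.20 (adjusted p = 0.000106). Zfp362 and Zfp202 were lower with either replicate left out. An internal Zfp469 peak (chr8:122144688-122145621) fell by 0.66 (adjusted p = 5.81e-06) and an internal Zfp827 peak by 0.84 (adjusted p = 0.0161). The first lost its call without 1 replicate and the second without either.

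Within Ttad alone 40 members were called with Zfp219KO, or 7.62% against 8.23% of all peaks, 25 higher (3.66% of all peaks) and 15 lower (4.56% of all peaks). Of the starts 16 were higher and 2 lower, and starts of any gene leaned the same way (569 higher and 190 lower of 11550). Without replicate 1 or 2, 8 members were called. Apart from Zfp652 the largest rises were weak internal peaks of Zfp800, Zfp879, Zfp473 and Zfp382, and the largest falls those of Zfp827, Zfp469, Zfp277 and Zfp202. The OTC Ttad libraries used here are the same as in the comparisons of Ttad with Tterm and Tprog above. Zfp277 was not called with a pseudocount of 8, by edgeR or with only the groups compared, nor was Zfp827 with that pseudocount (-1.03) or only the groups compared. Zfp879 rose from 10.1 and 8.62 normalised reads to 46.6 and 41.8, by 2.13 (adjusted p = 0.00122). Zfp469 (chr8:122181191-122182005) fell from 48.6 and 53 to 11.9 and 11.1, by 2.05 (adjusted p = 0.000378). Neither group overlapped the other, and with a replicate left out the highest adjusted p was 0.069 for Zfp879 and 0.0523 for Zfp469.

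In young hosts 21 members were called with Zfp219KO, or 4.0% against 7.07% of all peaks, 7 higher (1.92% of all peaks) and 14 lower (5.15% of all peaks). Under quantile normalisation the split was 7 higher and 8 lower, and 10, 3 and 16 members were called without replicate 1, 2 and 3. Zfp142 fell by 0.31 (adjusted p = 0.00259), from 478 to 590 normalised reads over all young OTC libraries to 386 to 477 with Zfp219KO. Zfp62 fell by 0.15 (adjusted p = 0.00967) and Zfp707 by 0.26 (adjusted p = 0.0486), and an internal Zfp365 peak rose by 0.73 (adjusted p = 0.00595). Each of these 4 lost its call in 1 or more replicate omissions, and Zfp62 and Zfp707 also under quantile normalisation.

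The test of the difference between ages called 38 members for Zfp219KO, or 7.24% against 9.11% of all peaks, 28 with the more positive effect in aged hosts (4.09% of all peaks) and 10 with the more negative (5.01% of all peaks). At starts the counts were 19 and 1, and 697 and 202 for starts of any gene. Without replicate 1, 2 or 3 the member count was 8, 14 and 34. Zfp239, whose start is printed above, had a difference between ages of 0.99 ± 0.18 (adjusted p = 6.97e-05), also with each replicate left out. In aged cells it had 91.7 and 97.6 normalised reads in OTC Tprog, 90.3 and 98.8 in Ttran and 101 and 99.9 in Tterm, and 172 and 132, 201 and 170, and 155 and 152 with Zfp219KO. In Ttad the order was the opposite, 144 and 140 with OTC against 122 and 87 with Zfp219KO. In young cells OTC libraries ran from 110 to 161 and Zfp219KO libraries from 67.7 to 128. Over the 4 states of aged hosts Zfp239 rose by 0.44 with Zfp219KO (adjusted p = 0.00275) and by 0.43 with Dusp5KO (adjusted p = 0.00882). Both use the same OTC libraries. With a replicate left out these rises ran from 0.282 to 0.604 and from 0.321 to 0.532. The Dusp5KO difference between ages at Zfp239 was 0.57 (adjusted p = 0.0559). The Zfp219KO effect at the internal Zfp142 peak also differed by age, by 0.62 (adjusted p = 3.6e-05), with each replicate left out as well.

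Dusp5 is a nuclear phosphatase of the kinase ERK. With Dusp5KO 43 members were called in aged hosts, or 8.19% against 12.2% of all peaks, 25 higher (4.35% of all peaks) and 18 lower (7.87% of all peaks). Quantile normalisation gave 33 higher and 8 lower, and 17 and 25 members were called without replicate 1 and 2. In young hosts 11 were called, or 2.1% against 3.82%, 6 higher (1.8% of all peaks) and 5 lower (2.02% of all peaks). There quantile normalisation gave 6 and 3, and 2, 1 and 8 were called without replicate 1, 2 and 3. The aged OTC libraries are the same as in the Zfp219KO and age comparisons, so these values are given side by side only. Zfp831 rose by 0.61 ± 0.10 (adjusted p = 1.08e-06) and Zfp142 by 0.46 ± 0.07 (adjusted p = 1.06e-06), against 0.60 and 0.37 with Zfp219KO. An internal Zfp469 peak (chr8:122173770-122174802) had 187 and 150 normalised reads in aged OTC Tprog, 313 and 252 in Ttran, 185 and 214 in Tterm, and 252 and 168 in Ttad. With Dusp5KO it had 229 and 278, 394 and 411, 309 and 331, and 341 and 274, higher in every state, by 0.59 ± 0.09 (adjusted p = 9.85e-07).

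A Zfp286 peak (chr11:62788772-62789631) rose by 1.21 ± 0.22 with Dusp5KO in aged hosts (adjusted p = 3.54e-05), from a range of 16.5 to 46.1 normalised reads over the aged OTC libraries to 44 to 105. The Zfp317 start, printed above with 2 copies of the ZNF143 core, fell. It had 1012 and 1029 in aged OTC Tprog, 1143 and 1086 in Ttran, 997 and 1140 in Tterm, and 1180 and 1138 in Ttad, and 852 and 857, 846 and 870, 873 and 923, and 1027 and 1029 with Dusp5KO. Dusp5KO libraries were lower in each state, by 0.26 ± 0.05 (adjusted p = 8.28e-06). These calls at Zfp831, Zfp142, Zfp469, Zfp286 and Zfp317 held with either replicate left out. Zfp598 fell by 0.31 (adjusted p = 0.00039), a call lost without 1 of the replicates, and Zfp267 by 0.24 (adjusted p = 0.0219), not called under quantile normalisation or with either replicate left out (adjusted p up to 0.243). Zfp652 differed by 0.08 (adjusted p = 0.628).

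The Dusp5KO effect differed by age at 15 members, or 2.86% against 4.0% of all peaks, 7 more positive in aged hosts (1.27% of all peaks) and 8 more negative (2.73% of all peaks). Quantile normalisation gave 9 and 5, and 4, 3 and 12 were called without replicate 1, 2 and 3. Zfp142 and Zfp831 each had the more positive effect in aged hosts by 0.78 (adjusted p = 3.46e-07 and 0.000148). A second Zfp827 peak (chr8:79154865-79156162) had the more negative by 0.68 (adjusted p = 1.72e-05). In aged Tprog it had 409 and 355 normalised reads with OTC and 267 and 250 with Dusp5KO, and in young Tprog 172 and 180 with OTC and 295 and 328 with Dusp5KO. Its Tprog libraries thus moved in opposite directions with age, and all 3 peaks held with each replicate left out.

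Clusters of numbered Zfp genes were described next (at least 5 genes, each within 100 kb of the next). There were 15 of them with 120 genes. The largest, on chromosome 7 (chr7:29768552-30169775), has 15 genes, all with a start peak, and 21 peaks in all. Its genes were looked at after their values had been seen. In aged Zfp219KO cells 12.1% of all peaks were higher and 13.7% lower. Of 11550 starts of any gene 2390 were higher and 784 lower. Of the 21 peaks in this cluster 10 were higher and 0 lower, with a median difference of 0.192. The count was 10 as well with a pseudocount of 8, without the weakest peaks, under quantile normalisation, by edgeR, with a replicate block and with only the groups compared. Then 3 and 6 were higher without replicate 1 and 2. In the age comparison 0 were higher and 7 lower (17.3% and 19.1% of all peaks), with a median of -0.0543, and 1, 6 and 6 were lower without replicate 1, 2 and 3. Among its starts with a RefSeq window, 7 of 10 with the ZNF143 core were higher in aged Zfp219KO cells and 0 of 4 without it. The split was not general: 3 of 12 starts with it were higher at chr13:67038594-67553152, 0 of 4 at chr13:67667441-67827000 and 1 of 4 at chr7:24081877-24316698. Without it 3 of 6 were higher at chr17:32765496-33110707, 3 of 5 at chr9:20345136-20605404 and 2 of 4 at chr7:4915181-5053723.

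Zfp940 had 179 and 173 normalised reads in aged OTC Tprog, 114 and 132 in Ttran, 187 and 166 in Tterm, and 111 and 177 in Ttad. With Zfp219KO it had 196 and 226, 207 and 222, 186 and 195, and 167 and 236. The libraries overlapped in Tterm and Ttad but not in Tprog and Ttran, and the mean difference was 0.42 (adjusted p = 0.00146). Zfp383, whose window also holds the motif, rose by 0.36 (adjusted p = 0.00199), from 168 and 151 to 267 and 241 in Ttran, while its Tprog libraries overlapped (216 and 216 against 155 and 249). Starts of Zfp14, Zfp260, Zfp790, Zfp84 and Zfp566 were also called, by 0.29, 0.26, 0.24, 0.19 and 0.11.

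**Figure D5:**
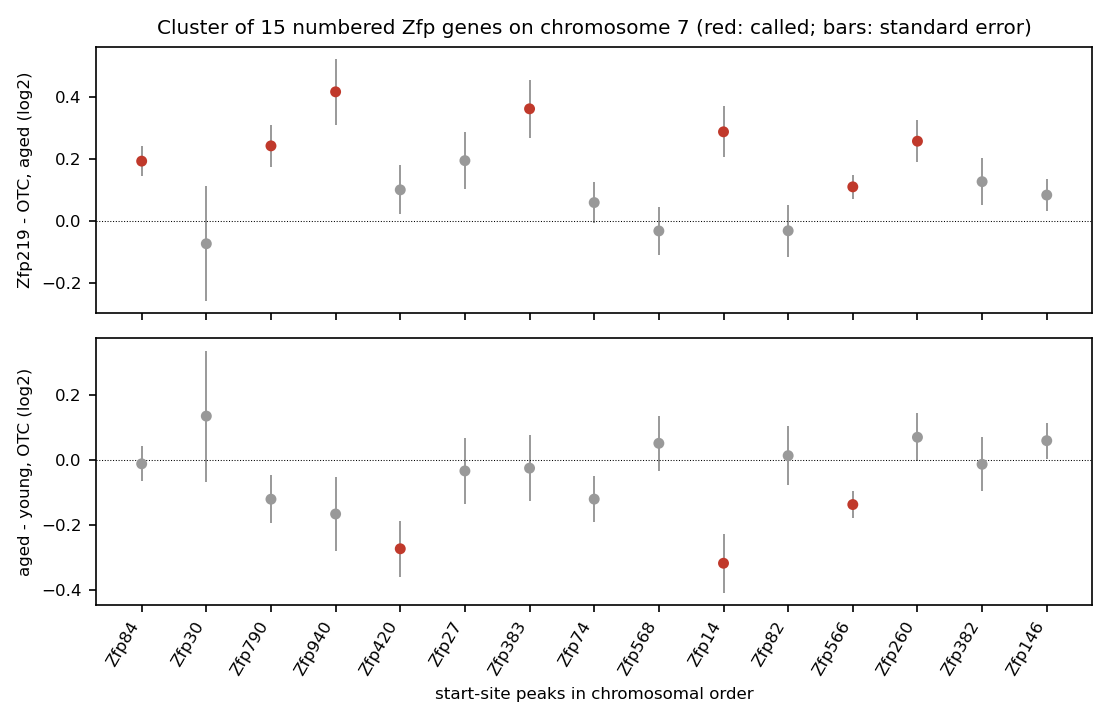
The 15 start peaks of the chromosome 7 cluster in their order along the chromosome, with the log2 difference ± standard error of aged Zfp219KO from aged OTC cells and of aged from young OTC cells. Both series use the aged OTC libraries, and Zfp940 (0.42) and Zfp383 (0.36) are the highest in the first.

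Other clusters behaved differently from each other. Of all peaks 12.1% were higher and 13.7% lower in aged Zfp219KO cells, and 17.3% were higher and 19.1% lower in aged control cells. The chromosome 13 cluster (chr13:67038594-67553152, 14 genes and 16 peaks) includes Zfp457, and 12 of its starts hold the motif. In aged Zfp219KO cells 4 of its peaks were higher and 0 lower with all libraries, and at most 2 without 1 of the replicates. On chromosome 17 the cluster at chr17:21383707-21994366 (17 peaks) had 1 peak higher and 7 lower in aged control cells and 2 higher with Zfp219KO. The 7 became 3, 2 and 6 without replicate 1, 2 and 3. Its neighbour at chr17:32765496-33110707 (10 peaks) had 1 higher and 3 lower with age and 5 higher and 1 lower with Zfp219KO. The 5 became 0 without replicate 1 and 1 without replicate 2.

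The members with known roles in T cells, chromatin or development were described by their strongest peak. Of 24 such genes 22 had a peak, and Zfp462 and Zfp131 had none. In aged Zfp219KO cells 8 rose and 1 fell, beside 2390 higher and 784 lower of 11550 starts of any gene. Zfp292 rose by 0.32 (adjusted p = 0.000234), Zfp207 by 0.23 (adjusted p = 0.0012), and the GC-box binders Zfp148 and Zfp281 by 0.23 and 0.16 (adjusted p = 0.000906 and 0.02). Zfp384 rose by 0.22 (adjusted p = 0.000819), Zfp335, needed for T cell maturation, by 0.21 (adjusted p = 0.000667), Zfp217, a CtBP partner, by 0.20 (adjusted p = 0.0138), and Zfp410, an activator of Chd4, by 0.20 (adjusted p = 0.0275). Zfp143 fell by 0.12 (adjusted p = 0.00584), and by 0.026 under quantile normalisation (adjusted p = 0.622). Zfp384 had 866 and 812 normalised reads in aged OTC Tprog, 767 and 869 in Ttran, 831 and 839 in Tterm and 773 and 804 in Ttad. With Zfp219KO it had 938 and 948, 943 and 1030, 949 and 864, and 942 and 1012, higher in each state. Each of these 9 calls was lost in 1 or both replicate omissions.

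Other comparisons called other members of this list. Between young Tprog and Tterm the starts of Zfp292 and Zfp207 were lower in Tprog by 0.56 and 0.46 (adjusted p = 0.000363 and 0.000342), with each replicate left out. Zfp57, which guards imprinted methylation, was lower by 1.35 (adjusted p = 0.00605), not called without 1 of the replicates (highest adjusted p = 0.143). With age, Zfp445, which shares that task, was higher by 0.26 (adjusted p = 0.0392), Zfp281 by 0.16 (adjusted p = 0.0294) and a Zfp521 peak by 0.71 (adjusted p = 0.00942), and Zfp148 was lower by 0.20 (adjusted p = 0.0071). Of these, Zfp445, Zfp521 and Zfp148 were not called with a replicate block, and Zfp281 dropped to 0.04 without replicate 1 (adjusted p = 0.751). Zfp36 fell by 0.18 in young Zfp219KO cells (adjusted p = 0.0422). The call was lost under quantile normalisation, where Zfp36 fell by 0.14 (adjusted p = 0.137), and with any of the 3 replicates left out.

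The genes through which KRAB proteins act, and the heterochromatin genes around them, were counted as a fixed list of 16 genes with 32 peaks. In aged Zfp219KO cells 9 of these peaks were higher and 0 lower, beside 12.1% higher among all peaks and 2390 of 11550 among starts of any gene, with a median difference of 0.123 against 0.00636 over all peaks and 0.0679 over the members. They lay in Atf7ip, Atrx, Daxx, Morc2a, Morc3, Setdb1 and Tasor. Atf7ip, the partner of Setdb1, rose by 0.20 (adjusted p = 0.000965), and Tasor, of the HUSH complex, by 0.22 (adjusted p = 0.00316). In aged against young control cells 2 of the 32 peaks were higher (Smarcad1 and Uhrf1) and 6 lower (in Atf7ip, Atrx, Daxx and Tasor), beside 17.3% and 19.1% of all peaks. Atf7ip fell by 0.37 (adjusted p = 1.19e-08). The 2 comparisons share the aged OTC libraries. In Tprog against Tterm 8.88% of all peaks were higher and 11.2% lower in aged hosts, and 13.9% and 12.6% in young hosts. Starts of any gene had 439 higher and 904 lower of 11550 in aged hosts, and 939 and 1903 in young hosts. Of the 32 peaks 1 was higher and 3 were lower in aged hosts, and 1 was higher and 4 lower in young hosts. The higher one was Cbx5, a heterochromatin protein, by 0.83 at both ages (adjusted p = 0.0192 and 0.00775). Dnmt1 and Uhrf1, which copy DNA methylation at replication, were lower at both ages.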

How the data were processed

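The deposited table holds 1 signal value per peak and library, which the authors made by dividing ATAC-seq reads in each peak by a size factor of the library. The division was read from the values, since 100% of them were whole multiples of a library's step within 0.01. The submitters' processing notes name the build mm10 and the tools Bowtie2 2.2.9, Picard 2.8.0, SAMtools 1.3.1, MACS2 2.1.1 and DESeq2 1.28.1, without their roles. How reads with several placements were treated is not given in the sources used here. Gene bodies and start windows came from RefSeq tables of GRCm38.p6.

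limma 3.58.1 in R 4.3.3 was fitted to log2(signal + 1) of all 53868 peaks with 21 group means (27 residual degrees of freedom), a mean-variance trend and Benjamini-Hochberg adjustment, and tested on simulated data. Depth ran from 5638413 to 29942755 reads in peaks, and weak peaks are the least precise. Groups came from the samples' labels.

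Each fit was repeated with a pseudocount of 8, without the 25% of peaks with the lowest means, after quantile normalisation, with edgeR 4.0.16 on the recovered read counts, with a replicate block, on only the groups compared, on only peaks over 1 gene, and with each replicate number left out. Members, gene lists and tests were chosen with earlier results of these data known. Named were Zfp219, the 4 largest rises and falls of each comparison among called members whose libraries did not overlap, the 5 strongest and 5 most variable peaks, and lists of genes by role. Zfp940, Zfp383 and the other genes of the chromosome 7 cluster were chosen after their values were seen. Peaks of Zfp652, Zfp142, Zfp536, Zfp831 and Zfp239 were also followed through all comparisons after their values were seen. A grouping by KRAB domain and number of fingers was planned, and protein sequences were not used here.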

Additional observations from a re-analysis of the deposited data

Results flagged for a closer look

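The effect of a guide differed between aged and young hosts, by a test of that difference over Tprog, Ttran and Tterm with limma, at 38 member peaks for Zfp219KO and at 15 for Dusp5KO. Positive values below mean a more positive effect in aged hosts. Both tests use the same OTC libraries.

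For Zfp219KO the difference was 1.86 log2 at Zfp503, 0.90 at Zfp654, 0.99 at Zfp239 and 0.98 at Zfp473. It was -2.02 at Zfp472, -1.22 at Zfp978, -0.95 at Zfp143 and -0.95 at Zfp202. Of these 8, the Zfp239 difference was called with each replicate left out. The Zfp654 peak (chr16:64799819-64800885) had 72.5 and 93.2 normalised reads in aged OTC Tprog and 146 and 119 with Zfp219KO. In young Tprog it had 155 and 151 with OTC and 118 and 201 with Zfp219KO.

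For Dusp5KO the difference was 0.78 at Zfp142, 0.78 at Zfp831, 0.86 at Zfp407 and 1.51 at Zfp668. It was -1.75 at Zfp472, -0.76 at Zfp143, -0.68 at Zfp469 and -0.68 at Zfp827. Of these 8, the differences at Zfp142, Zfp831 and Zfp827 were called with each replicate left out. At Zfp472 and Zfp143 the values for both guides were negative, and the OTC libraries behind them are the same.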

How the results depend on the processing

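No alternative that kept all libraries changed the count of called members by over 1.5 times, except fitting only the groups compared. That fit called 46 members between Ttran and Tprog in aged hosts, 10 between Ttad and Tprog, and 17 for Dusp5KO in young hosts. Leaving out a replicate number, which leaves groups with a lone library assumed to vary like the others, gave 21 to 34 called members for Tprog against Tterm in aged hosts and 59 to 87 in young hosts. Ttran against Tprog gave 27 to 28 in aged and 31 to 47 in young hosts. Ttad gave 4 to 12 against Tterm and 5 to 6 against Tprog. Age gave 89 to 159. Zfp219KO gave 47 to 60 in aged hosts, 3 to 16 in young hosts, 8 in Ttad and 8 to 34 for the difference by age. Dusp5KO gave 17 to 25, 1 to 8, and 3 to 12 for the difference by age.

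Of 150 named differences, 144 kept their direction and call under edgeR, 144 with a pseudocount of 8, and 123 under quantile normalisation. Leaving out replicate 1 or replicate 2 ended most of these calls, with the direction kept. Under quantile normalisation 4 differences at the strongest starts changed sign: Zfp687 to 0.006904 for Zfp219KO and 0.01108 for Dusp5KO in aged hosts, and Zfp446 to -0.02068 for Ttran against Tprog in aged hosts and 0.01213 for Dusp5KO in aged hosts. The cause was not tested.

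Deviations of same-numbered libraries correlated between -0.0184 and 0.017 (median -0.00142, 219 pairs), so no shared deviation was seen. The labels do not say whether same-numbered libraries came from the same mice, and these correlations cannot show it. With the replicate number as a block within each age, 66 and 104 members were called for Tprog against Tterm in aged and young hosts. For Zfp219KO in aged hosts 130 were called, and 144 of the 150 named differences kept their call. For age 134 were called in place of 173. There the block compares the fitted levels of replicate 1 between the ages, so it does not adjust the age difference for pairing.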

Other observations

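Over all 525 peaks, numbered Zfp genes took between 1.08% and 1.196% of a library's reads in peaks. Aged OTC libraries took 1.131 to 1.132% in Tprog, 1.08 to 1.088% in Ttran, 1.097 to 1.102% in Tterm and 1.124 to 1.126% in Ttad. Young OTC libraries took 1.152 to 1.153%, 1.112 to 1.118% and 1.158 to 1.166% in the first 3 states. Aged Zfp219KO libraries took 1.181 to 1.185%, 1.167 to 1.168%, 1.159 to 1.16% and 1.19 to 1.196%. Aged Dusp5KO libraries took 1.188 to 1.189%, 1.126 to 1.138%, 1.115 to 1.124% and 1.154 to 1.164%. Within each state every aged Zfp219KO and every aged Dusp5KO library stood above the aged OTC libraries, which both guides share as control.

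Start windows of members called between young Tprog and Tterm differed in CG pairs. Each peak was given the count of its window with the most CG pairs. The median was 10 over the 19 peaks higher in Tprog, 27 over the 20 lower in Tprog and 14 over the 207 not called. No such values are given for other genes. These are descriptions of the windows, with no test.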
